A study of Mus musculus with 2 samples.

Results

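The motile cilium axoneme genes were examined in DNase-seq maps of mouse lung. They were chosen by symbol alone: protein-coding genes of the GENCODE annotation whose names begin with Dnah, Dnai, Rsph, Tekt, Cfap, Spag or Drc followed by a number, which gave 76 of 21938 protein-coding genes outside the mitochondrial genome. DNase-seq treats nuclei with DNase I, which cuts open chromatin more readily than packed chromatin, and sequences the cut ends. The tissue was whole lung from B6CASTF1/J males at an age of 14 days, first-generation hybrids of C57BL/6J and CAST/EiJ. There were 2 libraries of 1 group: replicate 1 is labelled male, and replicate 2 came from a pool of 3 males. The labels give a single donor record for both, which does not settle whether any animal gave both libraries, and there was no other genotype, treatment or age to compare with. The axoneme genes are therefore set beside all protein-coding genes, or groups of them beside each other, within each library, as a description with no test.

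The axoneme is the microtubule core of motile cilia and of the sperm tail: a ring of doublet microtubules around a central pair. Dynein arms, whose heavy chains are the motors, make the doublets slide, while radial spokes and the nexin-dynein regulatory complex (N-DRC) turn sliding into a regulated beat. In the lung, motile cilia are carried by multiciliated cells of the airways, which move mucus. Their genes are known targets of Foxj1 and of the RFX transcription factors, which bind a sequence called the X-box.

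Peaks are the accessible sites that the authors called in each library, and the peak score is their own signal value. A promoter counted as open if any peak base lay within 1 kb of an annotated transcript 5′ end of the gene, and the highest-scoring such peak stood for the promoter. Because scores were set within each library, each is given with its percentile among all peaks of that library, 94786 in replicate 1 and 77403 in replicate 2. Read depth is unknown. In whole tissue, fewer cells of a type and less open chromatin per cell cannot be told apart. Of 9 lung marker genes 8 were open in each library, at percentiles from 47.3 to 97.3 in replicate 1 and from 35 to 96.8 in replicate 2, and the club cell gene Scgb1a1 had no promoter peak in either. Of 8 regulators of multiciliated cells 7 and 6 were open. The 3 highest were Rfx2 at percentiles 99.2 and 98.4, Foxj1 at 96.2 and 95.8 and Rfx3 at 95.7 and 94.3. Ccno stood at 93.9 and 94.1, Mcidas at 73.4 and 61.7 and Myb at 52.1 and 60.5. Gmnc stood at 2.44 in replicate 1 and had no promoter peak in replicate 2, and Trp73 had none in either. Of 10 sperm and germ line genes 3 were open in each library, and of 4 epididymis genes 1. Over all protein-coding genes 66.6% and 64.1% were open, at a median percentile of 89.9 and 89.7.

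The X-box was found far more often at these promoters than at promoters in general. It was searched as GTTNCC, then 4 or 5 bases of any kind, then AAC, on both strands, within 75 bp of the centre of each promoter peak. In replicate 1, 12 of 63 open axoneme promoters held a match and in replicate 2, 10 of 59. The background was low: 1.52% of the promoter peaks of all protein-coding genes in replicate 1 and 1.62% in replicate 2. All 12 matches are shown here because the pattern rests on them, with the match in capitals, 8 flanking bases on each side, and each read 5′ to 3′ along its gene from the C57BL/6J reference (GRCm38, the coordinates of mm10). A match that lies on the opposite strand reads here as GTT, the gap, then the reverse complement GGNAAC.
Cfap43 (chr19:47919292-47919321, minus strand): agcaaaaaGTTTCCGTGACAACgcggaaat
Cfap44 (chr16:44394764-44394793, plus strand): ggagggacGTTGCTATGGCAACcgcagtaa
Cfap45 (chr1:172521103-172521132, plus strand): gttcttggGTTGCTATGGTAACgcgtcagc
Cfap54 (chr10:93081630-93081658, minus strand): gggagatcGTTGCTTGGCAACcgcttgtc
Cfap61 (chr2:145934768-145934797, plus strand): gccgcgtcGTTTCCTTAGCAACtgtgtgcg
Cfap97d1 (chr11:101984212-101984241, plus strand): gtcatcccGTTGCCATGGCAACgaaggcag
Dnah7a (chr1:53706566-53706595, minus strand): tccctccaGTTTCCTTCCCAACcgttggac
Dnah9 (chr11:66168613-66168641, minus strand): ttccaccaGTTTCCCAGCAACaacgacgc
Dnaic2 (chr11:114727378-114727406, plus strand): cggccaggGTTGCTAGGCAACtggtaaac
Rsph3a (chr17:7945980-7946008, plus strand): aacctcggGTTGCTCGGCAACcgatgggg
Spag1 (chr15:36179735-36179763, plus strand): ttactgggGTTACCAGGAAACgctatggt
Spag16 (chr1:69826859-69826888, plus strand): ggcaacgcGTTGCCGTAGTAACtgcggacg

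Most of these 12 genes encode parts of the axoneme. Cfap54 belongs to the central pair, Cfap43 and Cfap44 form a tether of inner arm dyneins, Cfap45 lies inside the doublet microtubules, and Cfap61 belongs to the radial spokes, as does Rsph3a. Dnah9 and Dnaic2 are outer arm subunits, Dnah7a is an inner arm heavy chain, Spag16 is a central pair protein and Spag1 helps to assemble dynein arms in the cytoplasm. Of the 12 matches 5 had 13 letters and 7 had 14, and those of Cfap97d1 and Spag1 read as matches on both strands. The matches sat close to transcription starts: 10 were centred upstream of the nearest transcript 5′ end and 10 within 100 bp of it. The nearest, in Cfap61 and Rsph3a, were centred 1 bp upstream and spanned the 5′ end, and the farthest, in Spag1, 219 bp downstream of an inner 5′ end.

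Most of these matches lay under footprints, the short stretches within accessible DNA that the authors called as protected from cutting. So did most X-box matches at all promoter peaks. A footprint overlapped the match in 10 of 12 genes in replicate 1 and in 9 of 10 in replicate 2. Over all protein-coding genes, 1.07% of promoter peaks in replicate 1 and 1.12% in replicate 2 held a footprinted match. Of the matches themselves 83.3% and 90% were footprinted at axoneme promoters, against 70.2% and 69.1% at all promoter peaks. These shares count an overlap of 1 bp or more. When a footprint had to cover at least 7 bp of the match, 8 and 7 axoneme genes remained. The share over all promoter peaks at that setting is not given here. The whole match lay within 1 footprint in both libraries at Cfap44, Cfap45, Cfap54, Cfap61, Cfap97d1 and Dnaic2. At Rsph3a the footprint covered 3 of the 13 bases in each library, and at Spag1 it covered 11 bases in replicate 1 and 1 base in replicate 2. No footprint reached the match of Dnah9 in either library or that of Dnah7a in replicate 1. The Dnah7a match lay in the replicate 1 peak only: the replicate 2 peak of that gene was elsewhere and did not overlap it. Spag16 was open in replicate 1 only.

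**Figure D1:**
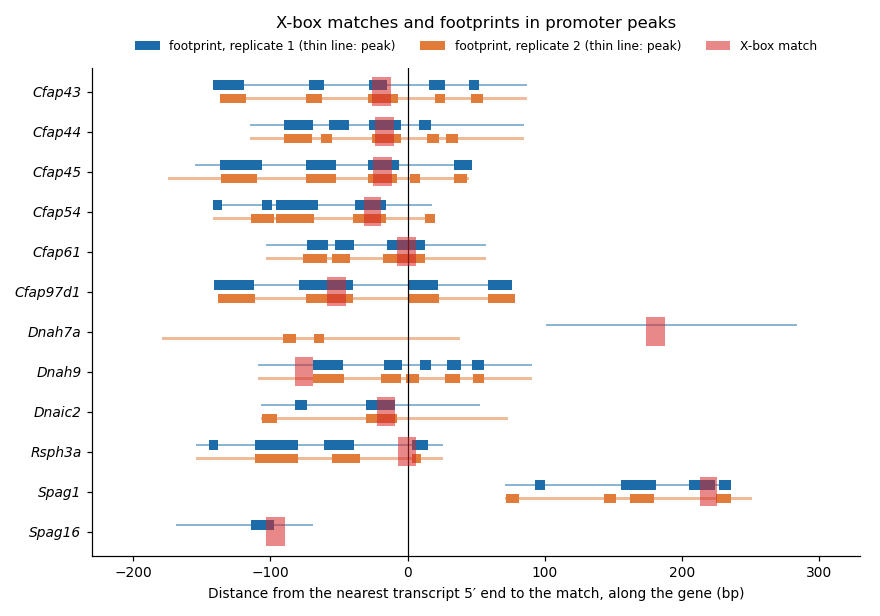
Each row is 1 of the 12 axoneme genes with an X-box match within 75 bp of a promoter peak centre; the horizontal axis is the distance in bp from the nearest transcript 5′ end, along the gene. Red boxes are the matches, thin lines the promoter peaks and thick bars the footprints of replicate 1 (blue) and replicate 2 (orange): 10 matches are centred upstream of the 5′ end, those of Cfap61 and Rsph3a spanning it, and that of Dnah9 has no footprint in either library.

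The shorter RFX sequence GTTGCCAT, a single arm of the X-box that overlaps some X-box matches, was also frequent. It was found in 9 of 63 and 9 of 59 open axoneme promoters (14.3% in replicate 1 and 15.3% in replicate 2), against 0.931% and 0.959% of all promoter peaks. Of the 9, 3 also held an X-box match and 6 did not, among them Tekt1, a filament protein of the doublet microtubule. Either sequence was present in 28.6% and 27.1% of open axoneme promoters, against 2.27% and 2.4% of all promoter peaks. The sequence GTTGCCA, 1 letter shorter, was found in 23.8% and 23.7%, against 2.73% and 2.76%.

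Of the other promoter sequences, none was as far above the background as the X-box and its single arm. The forkhead sequence TGTTTAC was in 0 of 63 and 0 of 59 open axoneme promoters, against 1.04% and 1.02% of all promoter peaks, a background at which fewer than 1 match would be found in either set. CCAAT, the NFY sequence, was in 20.6% and 22% of axoneme promoters, against 27.5% and 28.9% of all, and GGGCGG, the KLF/SP sequence, was in 42.9% and 45.8%, against 56.6% and 57%. The NRF1 sequence GCGCATGCG was in 3.17% and 3.39%, against 3.24% and 3.13%, and the ETS sequence CCGGAAGT in 6.35% and 8.47%, against 6.45% and 6.57%. TGANTCA (AP-1) was in 2 axoneme promoters in each library (3.17% and 3.39%), against 2.1% and 2.09% of all promoter peaks. GGAATG (TEAD) was in 4 and 5 (6.35% and 8.47%), against 5.43% and 5.5%. CACTTGA (NKX2) and the NFI palindrome, TTGGC and GCCAA separated by 5 bases, were in 0, against 0.725% and 0.775% of all promoter peaks for NKX2 and 0.0274% and 0.0142% for NFI.

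**Figure D2:**
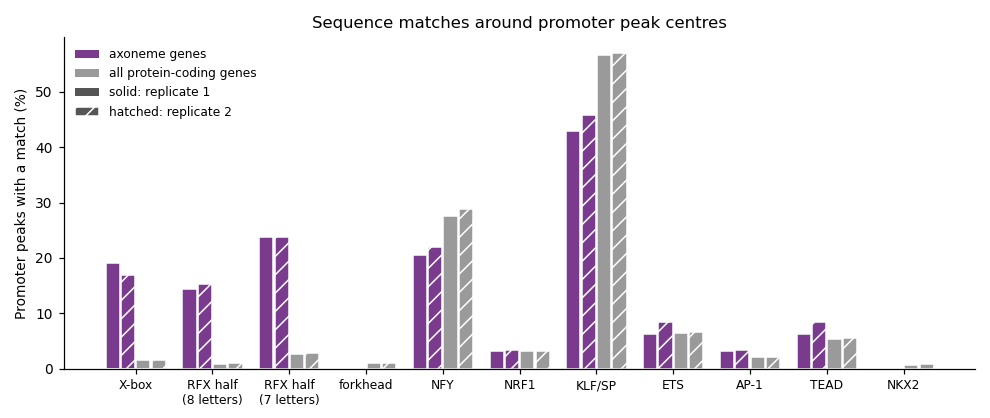
The vertical axis is the percentage of promoter peaks that hold each sequence within 75 bp of the peak centre, for axoneme genes (purple) and all protein-coding genes (grey), with replicate 1 solid and replicate 2 hatched. The X-box is in 19% and 16.9% of axoneme promoters, against 1.52% and 1.62% of all, while the KLF/SP sequence is in 42.9% and 45.8%, against 56.6% and 57%.

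The share with an X-box was above the background in both CpG classes. The class was set by the observed-to-expected CpG ratio around the outermost 5′ end, which need not be the open one. Among open genes with a ratio of 0.6 or more, the X-box was in 23.1% and 19.2% of axoneme genes, against 1.34% and 1.46% of all genes. Among those with a ratio under 0.6 it was in 16.2% and 15.2%, against 1.86% and 1.94%. Some of the X-box promoters are shared with a neighbouring gene of another kind, namely those of Cfap43 (with Itprip), Cfap61 (Crnkl1), Cfap97d1 (Dusp3), Dnah9 (the noncoding Gm12296) and Rsph3a (E430024P14Rik). Without any shared peak the count was 7 of 50 and 5 of 46, or 14% and 10.9%, against 1.4% and 1.5% of all unshared promoter peaks.

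Counted from the annotation alone, with no use of peaks, 18 of the 76 genes (23.7%) had an X-box from 250 bp before to 50 bp after a transcript 5′ end, against 5.21% of all protein-coding genes. Of the genes open in both libraries 27.1% had one, against 6.63% of all genes open in both. Of the 13 axoneme genes open in neither, 1 had one, namely Tekt2, a share of 7.69%, against 2.79% of all genes open in neither. An X-box inside the promoter peak but farther from its centre was found in both libraries at Dnaic1 and Cfap298. That of Dnaic1 begins at the transcript 5′ end and had 7 of its 13 bases under a footprint in replicate 1 and 0 in replicate 2:
Dnaic1 (chr4:41569767-41569795, plus strand): gcctgtcgGTTGCTGGGTAACcgcgtcag

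The same sequence was looked for in 2 related groups of genes. Of 39 other genes of the axoneme or of its assembly, whose symbols fall outside the rule, 37 and 34 were open. Over all protein-coding genes 66.6% and 64.1% were open. An X-box was held by 5 of the 37 and 5 of the 34 (13.5% and 14.7%), among them Dynlrb2, Hydin and Stk36. Of all promoter peaks 1.52% and 1.62% held one. All 25 genes of intraflagellar transport, which also serves the primary cilium of most cells, were open in both libraries, and 3 of them (12%) held an X-box in each. Among the 39 other genes of the axoneme or its assembly, Dynlt1b, listed as a dynein light chain, had the highest promoter peak (scores 45 and 67.6). Its 67.6 is the highest score of any peak in replicate 2. Next were Ccdc151 (15.5 and 23.1) and Enkur (16.6 and 17.3). How much of the sequence at these 3 promoters occurs once in the genome was not counted.

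Axoneme promoters were open more often than the average gene but at lower scores. A promoter peak was present in 63 of 76 genes (82.9%) in replicate 1 and in 59 (77.6%) in replicate 2, against 66.6% and 64.1% of all protein-coding genes. The mean share was 80.3% ± 3.72 (SD, n = 2), against 65.4% ± 1.74. In both libraries 59 were open, against 63.6% of all genes. The median promoter peak stood at percentile 74 in replicate 1 and 74.6 in replicate 2, against 89.9 and 89.7 for all genes with a promoter peak. Peaks over percentile 95 made up 14.3% and 13.6% of axoneme promoters, against 30.4% and 28.5%, and peaks under percentile 50 made up 19% and 20.3%, against 11.8% and 11.9%. The median promoter peak held 3 footprints in each library, against 4.

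Most axoneme genes with a CpG-poor outermost 5′ end were open, unlike genes in general with such an end. Open here means a peak at any 5′ end, so the open end need not be the CpG-poor one. In each library 5 of the 76 axoneme genes were open at an inner 5′ end only, against 1044 and 1038 of the 21938 protein-coding genes. Axoneme genes had a median of 4 distinct 5′ ends, against 3. All 26 axoneme genes with a CpG ratio of 0.6 or more over the 500 bp on each side of the outermost 5′ end were open in both libraries, against 95.4% and 93.5% of such genes overall. Of the 50 with a lower ratio 37 and 33 were open (74% and 66%), against 42.1% and 39.2% overall. All 13 genes open in neither library, and all 4 open in 1 library only, were of the lower kind. Among open genes the median percentile was 87.9 and 87.8 at a ratio of 0.6 or more, against 93 and 92.5. At a lower ratio it was 67.6 and 64.7, against 77.6 and 78.2. Peaks that lay near no other gene had a median percentile of 71.9 and 67, against 87.5 and 87.6, and shared peaks one of 90.1 and 92.5, against 93.8 and 93.4.

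**Figure D3:**
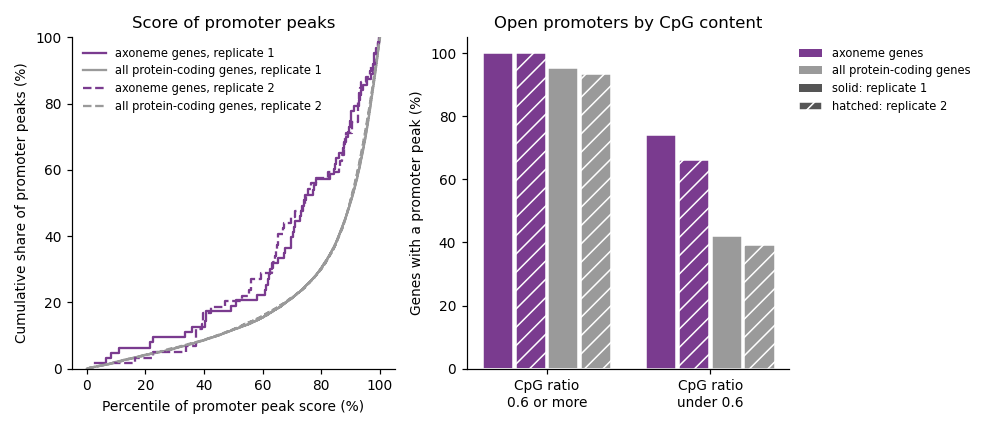
Left, the cumulative percentage of promoter peaks by percentile of their score, for axoneme genes (purple) and all protein-coding genes (grey), replicate 1 solid and replicate 2 dashed; the axoneme curves lie to the left, with medians of 74 and 74.6, against 89.9 and 89.7. Right, the percentage of genes with a peak at any 5′ end, by CpG ratio around the outermost 5′ end. In the class under 0.6 it is 74% and 66% for axoneme genes, against 42.1% and 39.2% for all genes.

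The 15 dynein heavy chains, the motor subunits, included 6 of the 13 genes with no promoter peak. All 13 had a CpG ratio under 0.6, a class in which 42.1% and 39.2% of all protein-coding genes were open. Heavy chains were not compared with other genes within a CpG class. Of the heavy chains 9 and 8 were open (60% and 53.3%), against 54 and 51 of the other 61 axoneme genes (88.5% and 83.6%). Those 61 include 6 Spag genes with other known roles, of which 4 were open in each library. Without these 6, the open axoneme genes numbered 59 and 55, in place of 63 and 59. The share of open heavy chains was near that of all protein-coding genes, 66.6% and 64.1%. Their median percentile when open was 61.2 and 51.6, against 77.6 and 75.4.

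Among the outer arm heavy chains of respiratory cilia, Dnah11 had a peak score of 3.02 in replicate 1 (percentile 77.4) and 2.92 in replicate 2 (76.6), and Dnah9 had 2.17 (69.5) and 2.26 (69.5). Both peaks were at the outermost 5′ end. Dnah5, the third heavy chain of that arm in airways, had no promoter peak and no base listed at a false discovery rate (FDR) of 0.05 or below within 1 kb of any 5′ end, in either library. The sperm counterparts Dnah17 and Dnah8 had peaks at inner 5′ ends only: Dnah17 scored 0.679 (22.5) and 0.77 (22.7), and Dnah8 scored 2.18 (69.7) and 1.09 (39.7). Only 16.1% of the 31-base words around the outermost 5′ end of Dnah8 occur once in the genome, so the lack of a peak there is uncertain. The reported Dnah8 peak was centred 113656 bp from that end, and unique words were not counted at the peak.

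Inner arm heavy chains ranged from percentile 6.38 to 91.3 in replicate 1 and from 8.45 to 90.6 in replicate 2. Dnah6 was high in both libraries at 6.82 (91.3) and 6.83 (90.6), with 5 footprints in each. Dnah1 had 1.63 (61.2) and 1.88 (63.5) in a peak shared with Gm49217. The 3 Dnah7 genes are near copies of each other on chromosome 1. Around the outermost 5′ end, 83.8% (Dnah7a), 73.1% (Dnah7b) and 85.2% (Dnah7c) of 31-base words occur once in the genome. Whether reads were split or lost there was not tested. Dnah7b had 0.983 (40.6) and 1.08 (39.2), Dnah7a had 0.445 (6.38) and 0.539 (8.45) in peaks that did not overlap, and Dnah7c had none. Dnah2 had 0.516 (11) in replicate 1 at an inner 5′ end and no peak in replicate 2. Dnah3, Dnah10, Dnah12 and Dnah14 had no promoter peak in either library.

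The sequences of 3 promoters with different readouts are given upstream of every annotated 5′ end, as far as the replicate 1 peak reaches. Rsph1 had the highest percentile of all 76 genes in replicate 1, Dnah6 the highest of the heavy chains, and Dnah9 a lower peak with an X-box, which is in capitals. In these letters the stretches of Rsph1 and Dnah6 held 0 X-box matches, that of Dnah6 held 1 CCAAT and that of Dnah9 held 2 GGGCGG.
Rsph1 (chr17:31277384-31277460, minus strand): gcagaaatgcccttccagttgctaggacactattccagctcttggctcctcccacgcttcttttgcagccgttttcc
Dnah6 (chr6:73221661-73221880, minus strand): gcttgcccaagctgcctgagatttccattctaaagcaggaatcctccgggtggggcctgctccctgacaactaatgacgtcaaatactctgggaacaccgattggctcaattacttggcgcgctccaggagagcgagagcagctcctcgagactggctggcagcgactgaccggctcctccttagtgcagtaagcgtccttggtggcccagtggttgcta
Dnah9 (chr11:66168552-66168660, minus strand): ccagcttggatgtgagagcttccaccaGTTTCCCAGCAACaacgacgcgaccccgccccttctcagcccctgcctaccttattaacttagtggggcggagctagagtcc

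The intermediate chains, which tie the outer arm to the doublet, were both open. Dnaic1 scored 13.3 in replicate 1 (98) and 17.1 in replicate 2 (98.7), in a peak shared with Fam219a, and Dnaic2 scored 2.46 (72.8) and 2.62 (73.8) in a peak of its own. Their order was the same in both libraries, with Dnaic1 far above Dnaic2.

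Radial spoke genes were open in 7 of 8 cases in each library, against 66.6% and 64.1% of all protein-coding genes. Rsph1, a spoke head protein, reached 21.1 (99.8) and 15.9 (98.2) in a peak near no other gene. Rsph9, another head protein, had 4.84 (86.2) and 4.86 (86.4). Rsph3a and Rsph3b, stalk proteins, had 5.64 (88.5) and 5.17 (87.2), and 3.97 (82.8) and 3.81 (82.3). Those values are uncertain, since the pair are near copies with 54.9% and 56.8% of words around their 5′ ends occurring once. Rsph14 had 2.23 (70.3) and 1.97 (65.1), and Rsph10b had 0.983 (40.6) and 0.968 (33.9).

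The spoke head protein of respiratory cilia, Rsph4a, had no peak in the lists used. In the authors' larger lists it had one at 0.403 (percentile 21.6 of that list) and 0.33 (7.42), and the lowest listed FDR near its 5′ ends was 0.0015 and 0.0007. Its sperm counterpart Rsph6a had 0.848 (33.5) and 0.671 (16.4). The 2 libraries therefore placed Rsph1 high, Rsph6a low and Rsph4a below the lists used.

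In the N-DRC, the link between doublets, Drc3 had one of the highest promoters at 15.9 (99) and 22.4 (99.7), in a peak shared with Tom1l2. Drc1 had 0.665 (21.5) and Drc7 had 0.474 (8.14) in replicate 1, and neither had a peak in replicate 2. Of the tektins, filament proteins of the doublet, Tekt5 had 2.02 (67.6) and 1.98 (65.3), and Tekt1 had 1.87 (65.3) and 1.53 (55.3). Tekt4 had 1.19 (49.1) and 1.03 (37.1) in peaks that did not overlap between libraries. Tekt2 and Tekt3 had none.

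Cfap genes, named for cilia and flagella associated proteins, were open in 29 of 31 cases in each library, against 66.6% and 64.1% of all protein-coding genes. The median percentile of the open Cfap genes was 84.8 and 78.1, against 89.9 and 89.7. The highest were Cfap20, of the inner junction of the doublet, at 17.4 (99.4) and 19.8 (99.3), and Cfap97d1, needed for the mouse sperm tail, at 13.1 (97.9) and 13.4 (97.1). Cfap97 followed at 11.6 (97) and 12.5 (96.6), Cfap300, a dynein arm assembly protein, at 12.5 (97.5) and 11 (95.4), and Cfap52, which lies inside the doublet, at 12.9 (97.8) and 8.89 (93.4). The Cfap52 peak is shared with Stx8. Cfap65 and Cfap73 had no promoter peak in either library.

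The Spag genes, first named as sperm antigens, are of 2 kinds by known role. The 6 of the cilium or its assembly were open in 6 and 5 cases at a median percentile of 56.7 and 63.1. Another 6 with other known roles were open in 4 cases in each library, at 91.5 and 91.7. Over all protein-coding genes 66.6% and 64.1% were open, at a median percentile of 89.9 and 89.7. Spag1 had 5.36 (87.7) and 5.48 (87.9), and Spag16 had 0.375 (2.74) in replicate 1 and no peak in replicate 2. Of the others, Spag7 was the highest at 9.98 (95.6) and 15.9 (98.2). Spag11a and Spag11b, defensin-like genes of the epididymis, had no promoter peak in either library.

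**Figure D4:**
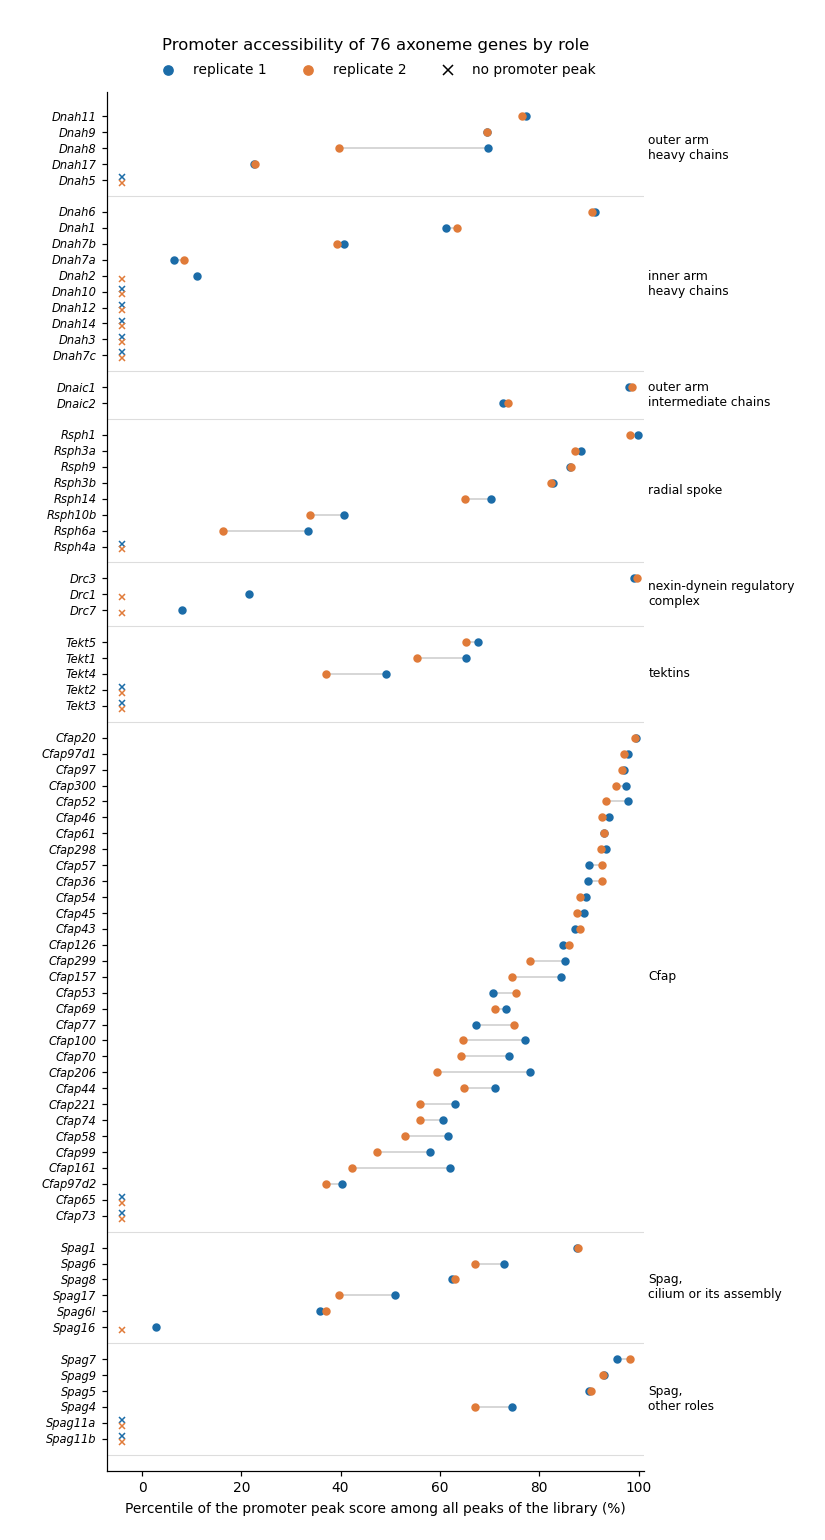
Each row is 1 of the 76 genes, grouped by role; the horizontal axis is the percentile of its promoter peak score among all peaks of the library, for replicate 1 (blue) and replicate 2 (orange), and a cross left of 0 means no promoter peak. The 6 heavy chains and 7 other genes with crosses in both colours were open in neither library, while Rsph1, Cfap20, Drc3 and Dnaic1 lie above percentile 98 or at it in both.

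The libraries ranked these promoters alike. Over the 59 genes open in both, Pearson's r of the percentiles was 0.961 and Spearman's rho 0.967, across genes that share the 2 libraries. The median absolute difference was 2.25 percentile points, the percentile was higher in replicate 1 for 40 genes, and the peaks overlapped for 56. The 3 exceptions were Cfap77, Dnah7a and Tekt4. The 4 genes open in 1 library only, Dnah2, Drc1, Drc7 and Spag16, were all open in replicate 1, which has the longer list. Their percentiles were between 2.74 and 21.5, and all 4 had a promoter peak in the larger list of both libraries. Of all 21938 protein-coding genes, 795 were open in 1 library only and 7199 in neither. Of the same genes, 14611 were open in replicate 1, 14072 in replicate 2 and 13944 in both. Of the 13 genes open in neither, 3 had one in the larger list of replicate 1 and 1 in that of replicate 2, and 9 had no base listed at an FDR of 0.05 or below in either library.

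Distal peaks, more than 1 kb from every protein-coding or long noncoding transcript 5′ end, were counted over each gene and 20 kb on each side. The median was 3 and 2 per axoneme gene, against 2 and 1 per protein-coding gene (mean 2.5 ± 0.707 for axoneme genes, against 1.5 ± 0.707 for all, SD, n = 2 libraries). These genes are long, with a median of 54.5 kb against 17.4 kb. Per 100 kb the medians were 3.07 and 2.38, against 2.49 and 2.12. By length, the 10 axoneme genes under 10 kb had medians of 1.5 and 1.5, against 1 and 1 for all genes of that length, and the 15 from 10 to 30 kb had 3 and 2, against 2 and 1. The 29 from 30 to 100 kb had medians of 3 and 2 and the 14 from 100 to 300 kb had 6 and 5, the same as all genes of those lengths. The 8 axoneme genes over 300 kb had medians of 2.5 and 2, against 9 and 8 for all 567 genes over 300 kb. They include the near copies Dnah7a, Dnah7b and Dnah7c, with 1 distal peak each in each library. Whether reads were split or lost at these copies was not tested. The other axoneme genes over 300 kb had from 2 to 8 in replicate 1 and from 2 to 7 in replicate 2.

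**Figure D5:**
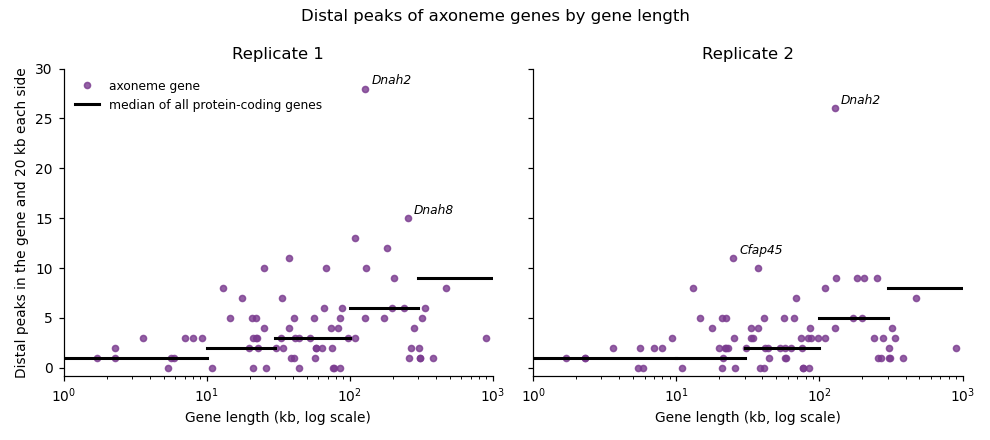
Each point is 1 axoneme gene, by gene length in kb (log scale) and number of distal peaks in the gene and 20 kb on each side, for replicate 1 (left) and replicate 2 (right); black lines are the medians of all protein-coding genes of the same length class. Dnah2 stands highest with 28 and 26, while axoneme genes over 300 kb lie below the line, with medians of 2.5 and 2, against 9 and 8. Those over 300 kb include the near copies Dnah7a, Dnah7b and Dnah7c, with 1 distal peak each in each library.

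The distinct distal peaks numbered 315 and 256, of which 51.1% and 49.6% lay inside an axoneme gene. A partner in the other library was present for 74.9% of those in replicate 1 and 91.8% of those in replicate 2. The replicate 1 list is the longer, with 94786 peaks against 77403, and no such share is given here for all distal peaks. For 51.7% and 50% of the 315 and 256 peaks, the nearest transcript 5′ end belonged to an axoneme gene. Their median percentile was 54 and 56, against 42.9 and 41.7 for all distal peaks. The X-box was rare in them: 6 and 4 held a match, or 1.9% and 1.56%, against 1.12% and 1.15% of all distal peaks.

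The 4 loci with the most distal peaks in replicate 1, apart from Cfap43, were Dnah2, Dnah8, Dnah17 and Tekt5. Dnah2 had 28 and 26 distal peaks, 23 of them common to both libraries, but for 16 in each library the nearest 5′ end was that of the neighbouring histone demethylase gene Kdm6b. The highest-scoring one (chr11:69417581-69417800) reached 13.6 (98.2) in replicate 1. Tekt5 had 11 and 10, of which 8 and 7 were nearest to Gm1600. Dnah8 had 15 and 9, of which 7 and 5 were nearest to Dnah8 itself, and Dnah17 had 13 and 8, of which 8 and 6 were nearest to Dnah17 itself.

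The share nearest to the axoneme gene itself varied among the other loci. All 8 distal peaks of Cfap126, a protein inside the doublet, had its own 5′ end as the nearest in both libraries, and all 8 were common to both. Cfap45 had 10 and 11, of which 5 in each library were nearest to itself. One of them, inside the gene at chr1:172528821-172528980, was the highest distal peak of all axoneme genes in replicate 1, at 14.1 (98.4), and stood at 8.04 (92.3) in replicate 2. Cfap43 had 12 and 9, of which 4 and 3 were nearest to itself, and Spag9, a signalling scaffold, had 10 and 9, of which 7 and 5 were. Dnah6 had 9 in each, of which 6 and 4 were nearest to itself and 3 and 5 to Gm20560, with the highest at 7.18 (91.9) in replicate 1. Dnah5, with no promoter peak, had 2 and 1, and Rsph4a had 0 in both libraries.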

How the data were processed

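Each library has deposited peak lists, FDR listings and footprints on mm10, per the file headers and listings. For the aligner and the peak caller, names and settings were not given in the sources used here. Peak scores are the signal values the authors deposited, with their scaling not stated. The FDR files hold p-value type rates, of which the authors list only those at 0.05 or below, and deposited footprints carry the constant threshold 0.01. No read counts are given, so depth is unknown, no interval for it was computed, and the number of libraries limits the precision.

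The peak file with fewer lines was used in each library. Genes and 5′ ends came from GENCODE M21, in which 32093 protein-coding and long noncoding genes defined distal peaks, and sequence from the RefSeq copy of GRCm38. The hybrid animals carry CAST/EiJ alleles that differ from it, and the effect on mapping, peaks and matches was not tested. Sequence matches and overlaps (1 bp or more) were checked on simulated data. No set test was run. Named Cfap and Spag genes were the 6 with the highest mean percentile, those open in neither or 1 library, those with the most shared distal peaks and those with an X-box. Cfap77 and Cfap298 were named after their values were seen. The members and lists were chosen with earlier results of these data known. Python 3.11.15, numpy 2.4.6, pandas 2.3.3, pysam 0.24.0 and matplotlib 3.10.9 were used.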

Additional observations from a re-analysis of the deposited data

How the results depend on the processing

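Of 34 alternatives to the 5 summary values, 26 left the value within its limit (1 SD between libraries, or 1.5 times for a count) and 8 moved it. The mean of the 2 libraries' median promoter percentiles, 74.3, became 74.7 with the outermost 5′ end only, 81.5 with the larger peak lists and 69.5 without peaks shared with another gene. The median of distal peaks per gene, 2.5, became 1 with no flank, 9.5 with 100 kb, 4.5 with the larger lists and 1 with the higher-scoring 50% of the peaks. For all protein-coding genes it was then 0 in each library with no flank, 8 and 6 with 100 kb, 3 and 2 with the larger lists, and 1 and 0 with the higher-scoring 50%. The mean count of axoneme genes with an X-box at a promoter peak, 11, became 6 without shared peaks. The cause was not tested, beyond fewer genes or a different region being counted. The settings without shared peaks for the percentile and the X-box, and those without the 6 Spag genes of other roles, were chosen after seeing the data.

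Leaving out 1 library gave 59 to 63 open genes, median percentiles of 74 to 74.6, 2 to 3 distal peaks, 10 to 12 genes with an X-box and 9 to 10 with a footprinted one. No paired analysis was possible because both libraries belong to 1 group. With 2 libraries and no read counts, a gene without a peak cannot be told from one below the depth of the lists.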
